A study of Rattus norvegicus with 6 samples.

Results

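Cytosolic ribosomal proteins are the protein building blocks of the ribosome, which reads messenger RNA in the cytoplasm and joins amino acids into protein. Members were taken by symbol: protein-coding gene models named Rpl or Rps with a number (and at most one of the endings a, x or l), together with Rplp0, Rplp1, Rplp2 and Rpsa. This gave 93 of the 33350 gene models in the table, 60 for the large subunit and 33 for the small subunit. They carry 73 symbols (45 and 28), because 10 symbols stand on more than 1 gene model and Rpl39 alone stands on 7.

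The study sequenced total RNA of rat cells, 6 libraries in all, under the label PC12, a line from an adrenal pheochromocytoma in which neuronal differentiation is often studied. In the 3 EC libraries the cells had received exosomes, small secreted vesicles, from control endothelial cells. In the 3 EN libraries the exosomes came from endothelial cells with high expression of NTN1, which encodes the guidance protein netrin-1, so both groups had received endothelial exosomes and no untreated cells were compared. Dose, exposure time and the way NTN1 was raised were not given in the sources used here. Nothing says that replicates came from separate cultures, so each p-value covers no more than the spread among these libraries, which may be technical.

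Ribosomal proteins are made in matched amounts, and surplus copies that are not built into a subunit are degraded. Their messenger RNAs belong to the TOP class, named for a terminal oligopyrimidine tract, a run of C and T bases that opens the transcript. Through this tract their translation follows the growth-signalling kinase mTOR and the binding protein LARP1, so that the level of these messengers and the rate at which they are read can move apart. RNA-seq shows only the first of these.

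Expression was deposited as FPKM, a read number scaled to transcript length and library size. The reads worked back from FPKM came to 15296193 to 16165804 per EC library and 16654025 to 19626012 per EN library, so each EN library was deeper. Mitochondrially encoded transcripts took 5.43% to 6.09% of the reads in EC and 4.40% to 5.50% in EN. The chromaffin genes that define PC12 were near the floor: 1 of 10, Th, reached the level for testing, and Hand2 was at 0 in all 6 libraries. The glial gene Sox10 had 102 FPKM in EC and 105 FPKM in EN, and S100b 131 and 95.4 FPKM. These levels go against the PC12 label, so the identity of the cells is in doubt and they are named here only by their label. Of 10 Schwann and glial genes 9 were tested, with 6 lower and 1 higher in EN, against 7.14% lower and 7.24% higher over all tested genes. The summed FPKM of the Schwann and glial genes was 476 to 484 in EC and 419 to 451 in EN. Of 8 fibroblast genes 3 were tested and none passed, with summed FPKM of 73.7 to 77.1 in EC and 71.9 to 75.2 in EN; Lum was at 0. Of 7 endothelial genes found 2 were tested, of which Egfl7 was higher, with summed FPKM of 4.93 to 6.49 in EC and 7.18 to 7.98 in EN; Cldn5 was at 0. The part of depth, mitochondrial share and these marker levels in the results below was not tested, and in RNA from whole cultures fewer cells of a type and less RNA per cell cannot be told apart.

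Promoter sequences were matched for 55 of the 73 symbols, as 56 entries of 300 bases each, from RefSeq on the GRCr8 build, which is not the build of the expression table. The start regions of 9 members that the results turn on are shown 5′ to 3′, from 45 bases before to 15 bases after the annotated start. Capitals mark the longest unbroken run of C and T that overlaps the window from 8 bases before to 12 bases after the start. The first 5 belong to members that were higher in EN, and Rps7 and Rplp1 to abundant members that did not pass the test.
Rpl13, chr19:68062469-68062528, plus strand: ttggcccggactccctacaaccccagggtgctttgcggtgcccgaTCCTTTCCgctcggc
Rplp0, chr12:46718376-46718435, minus strand: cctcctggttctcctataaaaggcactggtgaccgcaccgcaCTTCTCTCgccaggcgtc
Rps2, chr10:14251803-14251862, plus strand: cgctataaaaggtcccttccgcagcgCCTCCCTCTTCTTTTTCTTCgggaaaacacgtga
Rps3, chr1:163195762-163195821, minus strand: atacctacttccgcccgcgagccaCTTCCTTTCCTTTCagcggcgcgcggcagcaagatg
Rps10, chr20:5700730-5700789, minus strand: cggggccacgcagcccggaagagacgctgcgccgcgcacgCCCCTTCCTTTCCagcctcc
Rps7, chr6:50999431-50999490, minus strand: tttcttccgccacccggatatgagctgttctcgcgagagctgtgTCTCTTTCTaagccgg
Rplp1, chr8:71290858-71290917, minus strand: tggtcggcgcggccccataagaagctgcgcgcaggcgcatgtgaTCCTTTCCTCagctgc
Rpl36, chr9:1533735-1533794, plus strand: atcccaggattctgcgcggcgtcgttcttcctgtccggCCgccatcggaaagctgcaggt
Rpl41, chr7:1563483-1563542, minus strand: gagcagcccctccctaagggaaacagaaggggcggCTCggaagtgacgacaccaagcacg
Rpl36 and Rpl41 are shown because no long run overlaps this window, although Rpl36 rose and Rpl41 did not pass. Runs that end before the window, such as ttcttcct in Rpl36, are not marked. The marked run of Rps3 also lies before the annotated start and only reaches the edge of the window. A marked run therefore need not open the transcript.

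Many ribosomal protein transcripts of both subunits were higher in EN, most of them by small amounts. Of 47 large subunit models tested with limma on log2(FPKM + 1), 22 rose and 1 fell at an adjusted p under 0.05, and 24 did not pass. Of 31 small subunit models tested, 13 rose, 18 did not pass and none fell. In the same fit over all 12198 tested genes 14.4% passed, 7.24% higher and 7.14% lower, against 46.8% of large and 41.9% of small subunit models higher. The median log2 change was 0.20 for the large and 0.17 for the small subunit, beside -0.0028 for all tested genes.

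Most of the rises were small. The median log2 change of the members that were higher was 0.31 for the large and 0.28 for the small subunit, and the ratio of mean FPKM ran from 1.11 to 2.17 for the large subunit and from 1.12 to 1.35 for the small subunit. Every EN library lay above every EC library for 30 of 47 large and 17 of 31 small subunit models (63.8% and 54.8%), which was true of 18.6% of all tested genes. Every EN library lay below every EC library for 4 large and no small subunit models, against 19.4% of all tested genes. The members were also among the most abundant transcripts, with 36 of the 100 highest models. Of the 58 members above 100 FPKM 31 were higher and none was lower. Of the 735 other genes above 100 FPKM 88 were higher and 136 lower, with a median log2 change of -0.01.

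**Figure D1:**
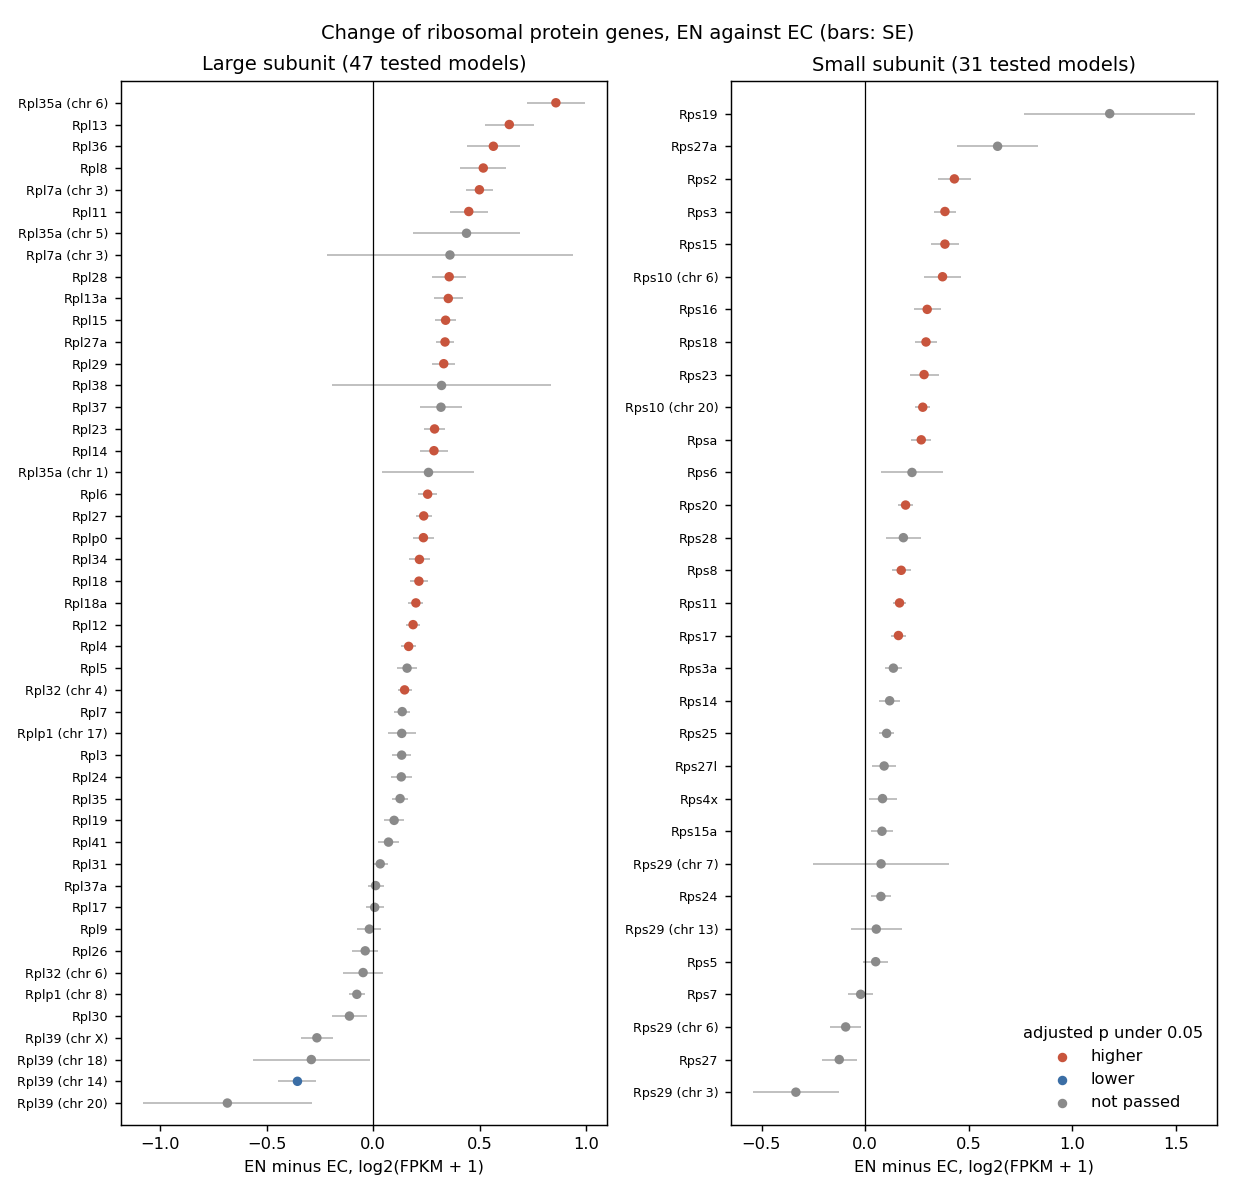
Change of each tested ribosomal protein gene model, EN minus EC on the log2(FPKM + 1) scale (x axis), with the large subunit on the left (47 models) and the small subunit on the right (31 models); bars are the standard error from limma and colours give the call at an adjusted p under 0.05. Most points lie to the right of 0, with 22 large and 13 small subunit models higher and 1 Rpl39 model lower.

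How many members passed depended on having all 6 libraries. Without EC replicate 1, 20 large and 12 small subunit models were higher (all genes 7.04%), and without EN replicate 3 the counts were 23 and 12 (all genes 8.46%). The counts fell to 4 and 2 without EC replicate 2 (all genes 1.33%), to 4 and 2 without EC replicate 3 (1.5%), to 4 and 3 without EN replicate 1 (1.45%) and to 3 and 2 without EN replicate 2 (1.17%). The shares of members and of all genes dropped together. The change of all 35 higher members stayed above 0 in each of these 6 fits, and the median log2 change stayed at 0.17 to 0.20 for the large and 0.14 to 0.19 for the small subunit. The 4 models that passed in all 6 fits were Rpl27a, 1 Rpl7a model, Rps3 and the Rps10 model on chromosome 20.

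**Figure D2:**
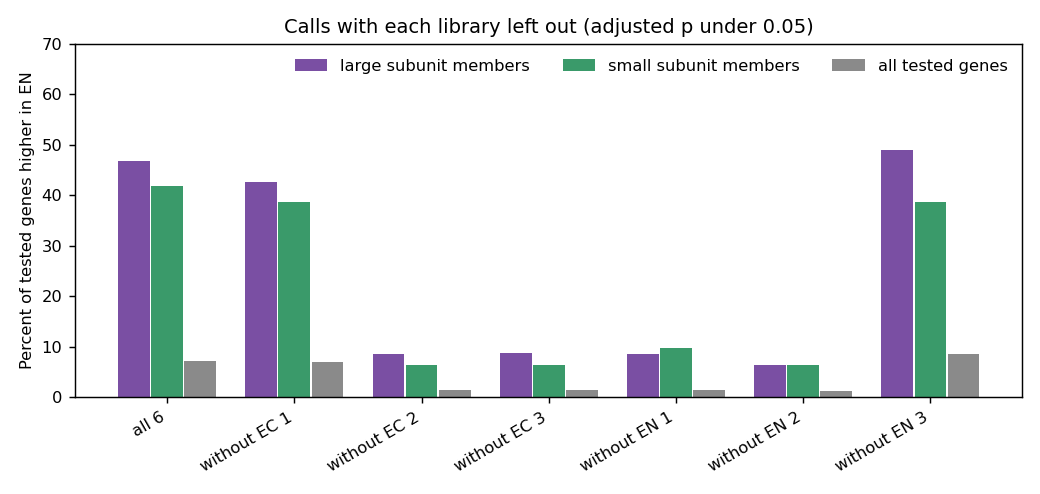
Percent of tested models that were higher in EN at an adjusted p under 0.05 (y axis) with all 6 libraries and with each library left out in turn (x axis), for large subunit members, small subunit members and all tested genes. With all libraries the bars stand at 46.8%, 41.9% and 7.24%, and leaving out EC 2, EC 3, EN 1 or EN 2 lowers all of them.

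Summed over all members, the large subunit stood at 17736, 17325 and 17066 FPKM in the EC libraries and at 19818, 19449 and 19769 FPKM in the EN libraries. The means were 17376 ± 338 and 19679 ± 200.2 FPKM (SD, n = 3 each), a ratio of 1.13. For the small subunit the sums were 14151, 13839 and 13554 FPKM in EC and 15985, 15810.4 and 15876 FPKM in EN. The means were 13848 ± 299 and 15891 ± 88.1 FPKM (SD, n = 3 each), a ratio of 1.15. For both subunits the lowest EN library was above the highest EC library. As a share of all reads the large subunit took 1.32% ± 0.037 in EC and 1.53% ± 0.020 in EN, and the small subunit 0.832% ± 0.024 and 0.980% ± 0.015 (SD, n = 3 each).

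**Figure D3:**
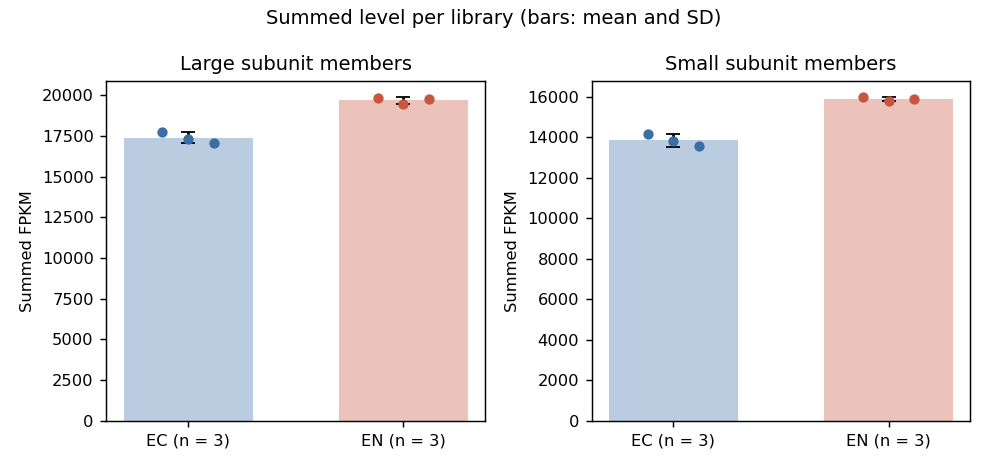
Summed FPKM of the large subunit members (left) and the small subunit members (right) in each library (points), with the mean (bar) and SD (error bar) of the 3 EC and 3 EN libraries. The EN points lie above the EC points in both panels, at 19449 or more against 17736 or less for the large subunit.

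The proportion of the subunits to each other differed little. The summed FPKM of the large subunit divided by that of the small subunit was 1.253, 1.252 and 1.259 in the EC libraries and 1.240, 1.230 and 1.245 in the EN libraries. Each EN ratio was below each EC ratio (means 1.25 ± 0.0038 and 1.24 ± 0.0076, SD, n = 3 each).

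Among the large subunit proteins, the stalk that recruits the translation factors held the most abundant member. Rplp0 (chr12:46791528-46794797, Rnor_6.0), the scaffold of the stalk, stood at 1406, 1341 and 1313 FPKM in EC and 1529, 1584 and 1670.1 FPKM in EN. The groups did not overlap and Rplp0 rose by 0.24 log2 (SE 0.048, adjusted p = 0.0252). Rplp1 on chromosome 8 (chr8:66862143-66863476), one of the acidic proteins that Rplp0 carries, stood at 1058, 998 and 1034 FPKM in EC and 964, 992 and 974 FPKM in EN. All 3 EN values were below the EC values, and the log2 change of -0.08 did not pass (adjusted p = 0.206). Rpl12, which joins the stalk to the ribosome, rose from 525 ± 6.03 to 598 ± 10.8 FPKM (log2 change 0.19, adjusted p = 0.0178). The second Rplp1 model, on chromosome 17, had 40 ± 3.09 FPKM in EC and 43.9 ± 2.24 FPKM in EN, with every EN value above the EC values, and did not pass (log2 change 0.13, adjusted p = 0.21). Of the 4 stalk models tested, 2 were higher.

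Rpl13 had the largest rise among members above 100 FPKM that passed. This protein sits on the outer face of the large subunit. Rpl13 (chr19:55917736-55919996) stood at 532, 414 and 401 FPKM in EC and 752, 702 and 634 FPKM in EN. The groups did not overlap although EC replicate 1 was well above the other EC libraries, and the rise was 0.64 log2 (SE 0.11, adjusted p = 0.0187). Rpl36 (chr9:10441259-10441834) showed a similar order, with 537, 431 and 408 FPKM in EC and 763, 678 and 590.2 FPKM in EN. It rose by 0.56 log2 (SE 0.13, adjusted p = 0.0303), again with no overlap between groups. Rpl13a (chr1:101120737-101123387), known also as part of a complex that silences inflammatory messengers, stood at 597, 538 and 546 FPKM in EC and 762, 733 and 655 FPKM in EN, a rise of 0.35 log2 (SE 0.068, adjusted p = 0.0215).

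Rpl27a (chr1:174132798-174135816) had the smallest adjusted p of the large subunit and was picked out here after its values were seen. It stood at 208, 196 and 198 FPKM in EC and 259.9, 257 and 245 FPKM in EN, with no overlap. The rise was 0.34 log2 (SE 0.041, adjusted p = 0.00616), and the largest adjusted p with a library left out was 0.0372. Rpl27 (chr10:89352835-89356547), a distinct protein despite its name, stood at 824, 826 and 789 FPKM in EC and 966, 934 and 975 FPKM in EN, a rise of 0.24 log2 (SE 0.038, adjusted p = 0.0135). Rpl28 rose from 122 ± 13.1 to 156 ± 8.58 FPKM (log2 change 0.36, adjusted p = 0.0304).

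Rpl11 (chr5:154388140-154394328) and Rpl5 form the 5S ribonucleoprotein, which is built into the large subunit and, when free, binds the p53 regulator Mdm2. Rpl11 stood at 59.3, 48.8 and 48.8 FPKM in EC and 76.6, 72.6 and 65.7 FPKM in EN, and rose by 0.45 log2 (SE 0.090, adjusted p = 0.0239). Rpl5 stood higher in FPKM, at 477 ± 18.2 in EC and 533 ± 25.2 in EN, and its log2 change of 0.16 did not pass (adjusted p = 0.0685). These FPKM are scaled to model lengths of 3845 bases for Rpl11 and 1069 bases for Rpl5. The reads over all 6 libraries were 24271 for Rpl11 and 54500 for Rpl5. Around the peptidyl transferase centre, where peptide bonds form, Rpl4 and Rpl8 rose and Rpl3 did not pass. Rpl4 was 620.1 ± 16.8 FPKM in EC and 696 ± 3.52 FPKM in EN (log2 change 0.17, adjusted p = 0.0265). Rpl3 was 627 ± 11.8 FPKM in EC and 688 ± 31.3 FPKM in EN (log2 change 0.13, adjusted p = 0.0812).

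The rim of the tunnel through which the growing chain leaves was the one role group with no member higher. Of its 9 tested models 8 did not pass and 1 was lower, with a median log2 change of -0.04. Of these models 4 were copies of 1 protein, Rpl39, with log2 changes of -0.68 to -0.26, and the other 5 (Rpl35, Rpl19, Rpl31, Rpl26 and Rpl17) had log2 changes of -0.04 to 0.13. The value of -0.68 came from a chromosome 20 copy near the floor, with a mean of 1.25 FPKM and 19 reads over all 6 libraries (adjusted p = 0.277). The chromosome 18 copy had overlapping groups (log2 change -0.29, adjusted p = 0.504). With all models of a protein summed, the log2 change was 0.13 for L35, 0.10 for L19, 0.04 for L26, 0.03 for L31, 0.01 for L17, 0.29 for L22 and -0.15 for L23a, and none of these passed. The lower model was a copy of Rpl39, a very short protein that lines the tunnel, on chromosome 14 (chr14:33030959-33031282). It stood at 16.6, 20.2 and 19.9 FPKM in EC and 15.9, 13.8 and 14.0 FPKM in EN and fell by 0.36 on the log2 scale (SE 0.089, adjusted p = 0.0429), a call lost in 5 of the 6 fits with a library left out. The far more abundant Rpl39 model on the X chromosome (chrX:123705384-123707257) stood at 501, 579 and 608 FPKM in EC and 454, 453 and 494 FPKM in EN. Its groups did not overlap and its log2 change of -0.26 did not pass (adjusted p = 0.0615). Over the 7 models described as this protein, the sum was 628 FPKM in EC and 519.9 FPKM in EN (log2 change -0.27, adjusted p = 0.0773).

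Rpl41 and Rpl19, among the 5 most abundant large subunit members, showed small differences. Rpl41, a very short basic peptide at the interface of the subunits, stood at 1114, 1207 and 1141 FPKM in EC and 1183, 1178 and 1279 FPKM in EN, and the groups overlapped (log2 change 0.07, adjusted p = 0.361). Rpl19, whose long helix reaches the small subunit, stood at 734, 716 and 731 FPKM in EC and 767, 745 and 825 FPKM in EN (log2 change 0.10, adjusted p = 0.188).

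Small subunit members with roles at the path of the messenger RNA were among those that rose most. Rps2 (chr10:14088319-14089979) and Rps3 (chr1:164435878-164441167) line the channel by which the messenger enters. Rps2 stood at 718, 619 and 629.9 FPKM in EC and 942, 908 and 801 FPKM in EN and rose by 0.43 log2 (SE 0.080, adjusted p = 0.0203). Rps3 stood at 564, 499 and 524 FPKM in EC and 713, 695 and 662 FPKM in EN and rose by 0.38 log2 (SE 0.054, adjusted p = 0.00957). Neither gene's groups overlapped, and Rps3 passed in every fit with a library left out (largest adjusted p = 0.0491).

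Rps15 (chr7:12282109-12283608), in the head of the small subunit near the decoding site, stood at 572, 506 and 484 FPKM in EC and 703, 679 and 654 FPKM in EN. Its rise was 0.38 log2 (SE 0.066, adjusted p = 0.0169). Rps10, a head protein that is ubiquitinated when ribosomes collide, stood on chromosome 20 (chr20:7215774-7219548) at 490.0, 477 and 478 FPKM in EC and 596, 591 and 567 FPKM in EN. It rose by 0.28 log2 (SE 0.035, adjusted p = 0.00732). The second Rps10 model, on chromosome 6, rose from 120.1 ± 16.4 to 155 ± 1.09 FPKM (log2 change 0.37, adjusted p = 0.037). Over the 6 models of this protein the sum was 623 FPKM in EC and 761 FPKM in EN (log2 change 0.29, adjusted p = 0.00795).

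Rpsa, Rps18 and Rps20 were the most abundant small subunit members that rose. Rpsa (chr8:128806129-128809986), which doubles as a laminin-binding protein at the cell surface, stood at 791, 786 and 776 FPKM in EC and 899.9, 933 and 1009 FPKM in EN (log2 change 0.27, SE 0.048, adjusted p = 0.0186). Rps18 stood at 814, 755 and 738 FPKM in EC and 981, 949 and 898 FPKM in EN (log2 change 0.29, SE 0.053, adjusted p = 0.0188). Rps20 stood at 881, 845 and 851 FPKM in EC and 959, 990.0 and 1001 FPKM in EN (log2 change 0.20, SE 0.037, adjusted p = 0.0209). None of these genes had overlapping groups. Rps16, whose tail contacts the transfer RNA in the P site, rose from 495 ± 43.4 to 608 ± 18.7 FPKM (log2 change 0.30, adjusted p = 0.0287), and Rps23, at the decoding centre, from 418 ± 23.1 to 509 ± 42.2 FPKM (log2 change 0.28, adjusted p = 0.0407).

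The most abundant small subunit member did not pass. Rps7 (chr6:47899558-47904163) stood at 1191, 1253 and 1249.9 FPKM in EC and 1176, 1145 and 1325 FPKM in EN, with overlapping groups (log2 change -0.02, adjusted p = 0.838). By position, 8 of 17 head models and 5 of 13 body and platform models were higher, with median log2 changes of 0.20 and 0.14. The 17 head models carry 13 symbols. Rps12 of the head and Rps9, Rps13, Rps21 and Rps26 of the body had no member model. With all models of a protein summed, S12, S13 and S26 were higher (adjusted p = 0.0458, 0.0237 and 0.0182), and S9 and S21 did not pass. These counts therefore do not compare the whole head with the whole body. Rps27 had 424, 479 and 528 FPKM in EC and 408, 444 and 456 FPKM in EN (log2 change -0.12, adjusted p = 0.339). Its paralog Rps27l, known as a p53-induced gene, had 185, 179 and 166 FPKM in EC and 189, 198 and 179 FPKM in EN (log2 change 0.09, adjusted p = 0.303). The lowest small subunit change was that of an Rps29 model on chromosome 3, with 15.2, 16.3 and 13.1 FPKM in EC and 10.4, 8.81 and 16.6 FPKM in EN (log2 change -0.33, adjusted p = 0.305).

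**Figure D4:**
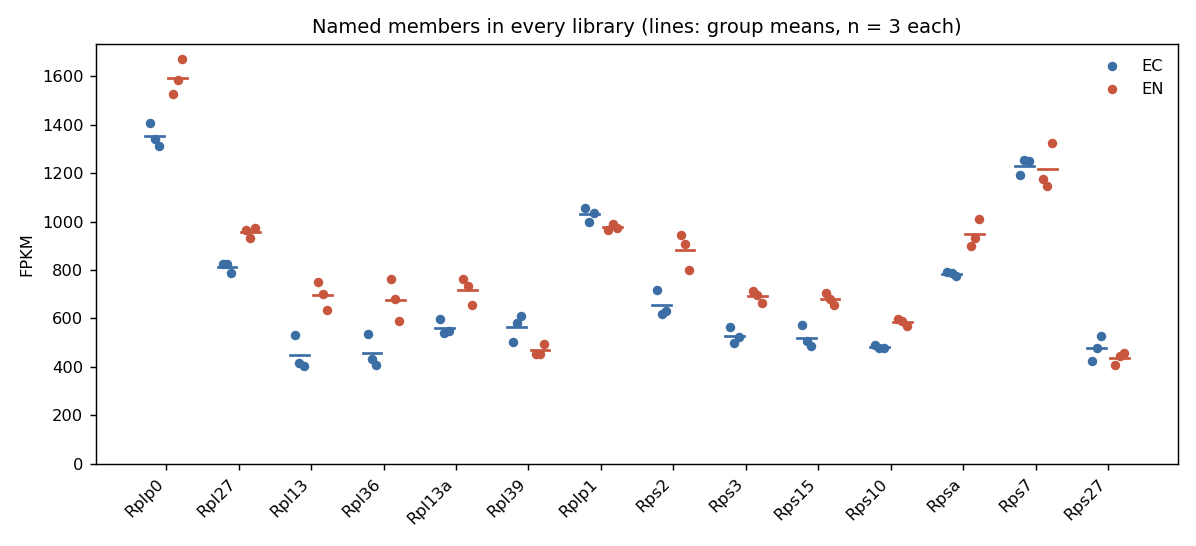
FPKM of 14 named members (x axis; Rpl39 is the X chromosome model, Rplp1 the chromosome 8 model and Rps10 the chromosome 20 model) in each EC and EN library (points), with lines at the group means (n = 3 each). Rpl13 moves from a mean of 449 to 696, while Rps7 stays at 1231 and 1215 with overlapping points.

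Many of the members that rose shared an order of libraries within each group. Among the 22 large subunit members that were higher, EC replicate 1 was the highest EC library for 18 and EN replicate 1 the highest EN library for 15. Among the 13 small subunit members the numbers were 12 and 9. How often these libraries were the highest over all tested genes was not counted. The order is thus not shown to be particular to the members. The spread within a group was described by the coefficient of variation. Its median over members above 100 FPKM was 3.85% in EC and 4.34% in EN, beside 3.37% and 3.95% over the 735 other genes above that level.

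The shortest transcripts are described apart. Of the 6 members above 100 FPKM with a transcript under 350 bases (Rpl36, Rpl39, Rpl30, Rps29, Rps27 and Rps28), only Rpl36 was higher and their median log2 change was -0.10. Of the 52 longer ones 30 were higher, with a median of 0.18, beside 7.24% of all tested genes higher. The limit of 350 bases was chosen after these values were seen, and the contrast depends on it. Rpl34 (354 bases, log2 change 0.22) and Rps20 (357 bases, log2 change 0.20) lie just above the limit and both were higher. Across the 58 members above 100 FPKM the change was only weakly related to the logarithm of length (Spearman's rho 0.12, Pearson's r 0.13, across genes of the same 6 libraries, which are not independent replicates). All 700 tested genes under 350 bases had a median log2 change of -0.0041.

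Ribosomal protein genes are copied widely in mammalian genomes as processed pseudogenes and recent duplicates, and the treatment of reads that match several copies was not given in the sources used here. Another 263 gene models in the table were described as cytosolic ribosomal proteins outside the symbol rule. Of the 35 members that were higher, 27 held at least 90% of the FPKM of all models of their protein, and the Rpl7a, Rpl8, Rpl35a and chromosome 6 Rps10 models held less than the other models of their protein together. With all models of a protein summed before the test, an alternative chosen after the data were seen, 21 of 47 large and 15 of 32 small subunit proteins were higher and none was lower (all genes 7.24%). The median log2 changes were then 0.20 and 0.18.

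Rps19 had the largest log2 difference of any tested member, beside an opposite one in a copy. Rps19 (chr1:81750928-81756627), mutated in the inherited anaemia of Diamond and Blackfan, stood at 35.8, 32.2 and 80.5 FPKM in EC and 133, 135 and 62.7 FPKM in EN, with overlapping groups (log2 change 1.18, SE 0.41, adjusted p = 0.0991). LOC100910336, a model on chromosome 9 described as the same protein, went the other way. It stood at 156, 189 and 119 FPKM in EC and 64.1, 55.1 and 73.0 FPKM in EN (log2 change -1.24, adjusted p = 0.00922). Summed over the 9 models of the protein, the level was 225 FPKM in EC and 197 FPKM in EN, and the log2 change of -0.21 had the opposite sign to that of Rps19 alone and did not pass (adjusted p = 0.317).

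Rps27a, which is made as a fusion with ubiquitin, gave the same picture. Rps27a (chr14:113966611-113968268) stood at 611, 499 and 335 FPKM in EC and 699, 720.0 and 768 FPKM in EN (log2 change 0.64, adjusted p = 0.0722). Its copy Rps27a-ps1 stood at 429, 511 and 633 FPKM in EC and 351, 315 and 311 FPKM in EN (log2 change -0.67, adjusted p = 0.0232). Library by library, the copy was high where Rps27a was low. The 4 models of the protein summed to 1006 FPKM in EC and 1055 FPKM in EN (log2 change 0.07, adjusted p = 0.286).

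**Figure D5:**
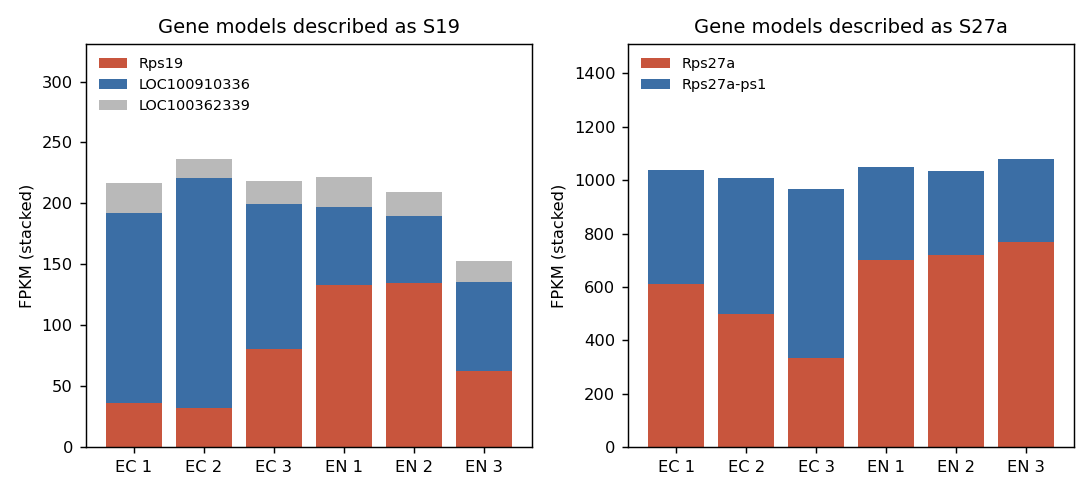
FPKM (y axis, stacked) of the gene models described as S19 (left, the 3 most abundant of 9) and as S27a (right, the 2 most abundant of 4) in each library (x axis). The portion given to Rps19 varies from 32.2 to 135 and that given to Rps27a from 335 to 768, while the S27a total over its 4 models stays between 968 and 1079.

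The same limit holds for Rpl7a, Rpl8 and Rpl35a. The Rpl7a model that rose (chr3:5459160-5461583; 18.3 ± 0.448 to 26.3 ± 2.23 FPKM, log2 change 0.50, adjusted p = 0.00785) lies on the same chromosome as a second one that had 89.3, 25.4 and 27.6 FPKM in EC and 105, 35.9 and 35.9 FPKM in EN. In that second model replicate 1 was about 3 times as high as replicates 2 and 3 in each group, and the sum over the 9 models of the protein did not pass (adjusted p = 0.281). Rpl8 (chr7:118507224-118509256), at the peptidyl transferase centre, stood at 11.9, 10.5 and 9.38 FPKM in EC and 17.6, 13.8 and 15.4 FPKM in EN (log2 change 0.52, SE 0.11, adjusted p = 0.0265), and its protein summed over 4 models also rose (log2 change 0.64, adjusted p = 0.0123). The Rpl35a model on chromosome 6 had the largest rise in the large subunit, from 2.27 ± 0.405 to 4.92 ± 0.736 FPKM (log2 change 0.86, SE 0.14, adjusted p = 0.0136), but held 10.3% of the FPKM of its protein, whose 9 models together did not pass (adjusted p = 0.167).

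Of the 93 members 15 had a mean under 1 FPKM and were not tested, 13 of the large and 2 of the small subunit. They were a chromosome 14 model of Rpl38, Rplp2, the Rpl39 models on chromosomes 15 and 7 and a second one on the X chromosome, the chromosome 9 model of Rpl37, both chromosome 12 models of Rpl35a, Rpl10l, Rpl3l, Rpl39l, Rpl23a, Rpl10a, Rps17l and the chromosome 5 model of Rps2. The highest mean among them was 0.729 FPKM and 4 were at 0 in every library. For some proteins the transcript was counted on a model outside the rule. The model LOC498555, described as P2, had 176 FPKM in EC and 207 FPKM in EN, while Rplp2 itself was at 0.356 FPKM over all libraries. The low levels of these symbols thus describe the gene models, not the proteins.

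Members of the ribosome that the symbol rule leaves out moved in both directions. Both Rpl36al models were higher, the one on the X chromosome from 113 ± 5.25 to 132 ± 5.30 FPKM (log2 change 0.22, adjusted p = 0.0299). Rpl22l1, a paralog of Rpl22 known for roles in splicing, stood at 165, 191 and 197 FPKM in EC and 149.6, 148 and 159.7 FPKM in EN and fell by 0.27 on the log2 scale (SE 0.071, adjusted p = 0.048). Rpl7l1 (log2 change 0.07, adjusted p = 0.419) did not pass. The Fau model, on chromosome 6, was near the floor with a mean of 2.95 FPKM over all libraries and did not pass (adjusted p = 0.236). It does not stand for S30, the ribosomal protein that Fau encodes. Another model, described as S30, had 181 FPKM in EC and 240 FPKM in EN. In the fit with models of a protein summed it did not pass (log2 change 0.62, SE 0.56, adjusted p = 0.48).

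Genes that act with the ribosome were called in both directions, as were all tested genes (7.24% higher and 7.14% lower). A further list held 21 models of translation factors and of other genes with TOP messengers, such as Hnrnpa1. Of these 21 models 4 rose (Eef1d, Hnrnpa1, Eef1g and Eef2), Eif3m fell and 16 did not pass. Their median log2 change was 0.04. Eef2, which moves the ribosome along the messenger, rose from 830.5 ± 23.6 to 957 ± 42.7 FPKM. Of 28 other initiation factors 5 rose (17.9%), 2 fell and 21 did not pass, with a median of -0.01. Eif4g1, the scaffold of the cap-binding complex, rose from 75.4 ± 0.623 to 91.4 ± 1.70 FPKM (log2 change 0.27, adjusted p = 0.00614), and Eif5a from 527 ± 19.3 to 639.8 ± 29.7 FPKM (log2 change 0.28, adjusted p = 0.0169). Eif6, which keeps free large subunits from joining, rose from 77.9 ± 0.636 to 90.6 ± 2.57 FPKM.

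Of 26 genes of mTOR signalling and TOP messenger control 3 rose, 2 fell and 21 did not pass, with a median log2 change of 0.01. Deptor, an inhibitor of mTOR, rose from 17.5 ± 0.292 to 22.1 ± 0.884 FPKM (log2 change 0.32, adjusted p = 0.0103), and so did Rps6kb2, a kinase of the ribosomal protein S6, and Sesn2. Rheb, the activator of mTOR, and Rraga fell. Larp1 was 59.7 ± 1.24 FPKM in EC and 70.2 ± 6.39 FPKM in EN and did not pass (log2 change 0.23, adjusted p = 0.0584). Of 15 RNA polymerase I genes Polr2e and Ubtf rose, Taf1a fell and 12 did not pass. Of 18 ribosomal protein chaperone and export genes Rrp1 rose and 17 did not pass, with a median of -0.07. Of 73 mitochondrial ribosomal protein models 11 rose, 4 fell and 58 did not pass, with a median of 0.08. The shares that rose were 11.5% for mTOR and TOP control, 13.3% for RNA polymerase I and 5.56% for chaperones and export. They were 15.1% for the mitochondrial models and 7.24% for all tested genes, of which 7.14% fell.

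The promoters shown at the start carry features that many members share. The longest run of C and T that overlaps the window around the annotated start had a median of 10 bases over the 56 member entries. Over all 33469 promoters of the table the median of this longest run was 4 bases. For the member entries the run was as follows. It reached 8 bases in 37 entries (66.1%) and in 12.9% of all promoters. Among entries of members that were higher in EN it did so in 16 of 23 (69.6%), and among those tested and not higher in 19 of 30 (63.3%). This measure was chosen after the data were seen.

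Motifs were searched on both strands of the 300 bases, and each share is a description of these letters in this window. CTTTCC was found in 28 of 56 entries (50%) and 26.4% of all promoters. CCGGAAG, the core of sites for ETS factors, was found in 19 (33.9%) against 8.75%. AAGATGG, a part of sites for YY1, was found in 9 (16.1%) against 7.01%, and the E-box CACGTG in 5 (8.93%) against 6.42%. None of the 4 motifs contains another. Between members that were higher and members tested and not higher, CTTTCC was in 11 of 23 and 17 of 30, CCGGAAG in 7 and 11, AAGATGG in 4 and 5, and CACGTG in 3 and 1.

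Many ribosomal protein genes also host small nucleolar RNAs in their introns. A model of such an RNA lay inside 23 of the 78 tested members (29.5%) and inside 1.90% of the 10815 tested protein-coding models, and Rpl4 held 6 of them. Of the 23 hosts 16 were higher, and of the 55 other tested members 19 were higher, beside 7.24% of all tested genes. Hosts and other members differed in level. Of the 20 tested members at or under 100 FPKM 4 were higher, and Rpl7a models were the only hosts among these 20. The part of level in this contrast was not tested. The members were spread over 21 chromosomes.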

How the data were processed

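RNA from 6 libraries (3 EC, 3 EN, by the treatment label) was taken with Trizol and made into libraries with an Illumina TruSeq RNA kit, per the labels' protocols. The authors deposited FPKM for 33350 gene models with symbols, positions, descriptions and length in bases. HISAT2 2.0.5 and the Rnor_6.0 build are named per the submitters' processing notes. Counting tool, annotation, strand setting, treatment of reads with several matches and filters were not given in the sources used here, so near-identical copies and overlapping genes may share reads. Whole reads (100% of values within 0.01 of a whole number) were worked back from FPKM and length. Columns of other samples numbered 0.

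Differences in log2(FPKM + 1) were tested with limma 3.58.1 (R 4.3.3), two-sided, with a trend of variance on mean and no term but group. Genes entered with a mean FPKM of 1 or more, and calls needed an adjusted p (Benjamini-Hochberg, over all tested genes) under 0.05. A change on this scale understates that of low genes. Alternatives were pseudocounts of 0.1 and 0.5, no filter or a mean of 5 FPKM, TPM, median centring, quantile normalization, removal of the length trend, protein-coding models only, rescaling without ribosomal protein genes, the replicate block, no variance trend, voom on whole reads and each library left out. Summing the models of a protein and TMM rescaling were added after the data were seen. The test was checked on simulated data made from these libraries, with changes set in genes of at least 5 FPKM. It recovered 0% of genes changed 1.1-fold, 20.8% changed 1.25-fold, 57.8% changed 1.5-fold and 89.8% changed 2-fold. Changes as small as most of those of the members were thus seldom called, and a model that did not pass is not shown to be unchanged.

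The members and lists were chosen with earlier results of these data known. Named with values were the 5 most abundant members per subunit, the 8 largest changes past the test, the extremes, paralogs, untested members by symbol and the 3 genes with the smallest adjusted p per list. Copies outside the rule, Larp1, Eef2 and Rpl27a were named after their values were seen. Values of some genes that this choice takes are not reported here.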

Additional observations from a re-analysis of the deposited data

How the results depend on the processing

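Over all tested genes 1754 passed, 866 with no expression filter, 1019 with no variance trend, and 345 to 2067 with a library left out. For the large subunit 23 members passed, 6 with no filter, 14 with no variance trend and 3 to 24 with a library left out. For the small subunit 13 passed, 3 with no filter, 6 with quantile normalization, 6 with no variance trend and 2 to 13 with a library left out. With no filter 20495 genes were tested. The cause of the other shifts was not tested. The change of all 35 higher members stayed above 0 in every alternative that fitted them, and the summed FPKM ratios were 1.12 to 1.15 and 1.14 to 1.16. Of 1207 values of 58 named genes under the alternatives, 981 kept direction and side of the threshold, 210 lost the call, 11 gained one and 5 changed sign: the log2 change of Rps7 (-0.086 to 0.020 with a library left out, 0.0008 without EN replicate 1), the log2 change of Rpl19 (-0.031) and the log2 change of Rpl3 (-0.012) with quantile normalization, and the log2 change of Rps19 (-0.21) with the models of its protein summed. Median log2 changes were 0.13 and 0.10 with quantile normalization and 0.16 and 0.12 with the length trend removed.

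With the replicate block 1907 genes, 25 large and 12 small subunit members passed. Over all tested genes same-numbered libraries did not deviate together (correlations 0.088, -0.095 and -0.020), so the numbers were not taken as pairs. Among the members that were higher, EC replicate 1 and EN replicate 1 were each often the highest library of their group. Whether same-numbered libraries deviate together in the members alone was not tested. EC replicate 1 correlated best with its own number and EC replicates 2 and 3 did not.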
